A study of Mus musculus with 2 samples.

Results

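Cassette exons are internal exons that are joined into some messages of a gene and left out of others. In adult mouse lung, 218 junction triplets recorded such a choice. A triplet is a skipping junction together with an upstream and a downstream junction that share its outer ends and enclose an exon of 20 to 300 bases. Members were chosen by the measured tallies themselves: all 3 junctions had to hold at least 100 reads, and 51814 of the 447240 junctions in the list met that minimum. The triplets held 210 distinct exons, because 6 exons lay in 2 triplets each and 1 exon lay in 3, and they used 209 distinct skipping junctions. Tallies chose the members, so the inclusion levels below are a description of the selected set.

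The RNA came from lungs of 8-week-old adult C57BL/6J mice, littermates of both sexes pooled, with no treatment or altered allele named. The study holds 1 group of 2 biological replicates, so no condition was compared. Polyadenylated RNA over 200 bases long was read as stranded 76-base pairs. The sources used here do not state how many animals were pooled or how the lungs were dissected, and bulk RNA does not separate a difference in cell makeup from a difference in RNA per cell.

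Splicing removes introns by joining a donor site at the end of an exon to an acceptor site at the start of a later one, and a cassette exon is skipped when its own sites are passed over. RNA-binding proteins near the exon shift that choice, and it differs between epithelium, endothelium, muscle and blood cells. Where the length of a coding cassette exon is a multiple of 3 bases, skipping removes whole codons or changes a codon at the joint and keeps the reading frame; other lengths shift the frame downstream, which often brings an early stop codon and decay of the message.

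The exons on which the description turns are shown first, to let the bases be read beside the tallies. They comprise the shortest members, the chained exons of Pecam1, and exons of regulators and signalling proteins whose alternative use is well known. Sequences are from GENCODE M21 transcripts on mm10, written 5′ to 3′ on the strand of the gene. Capitals mark the cassette exon and lower case the 15 bases of each neighbouring exon.
Flna (chrX:74232967-74232990, minus strand, 24 bases): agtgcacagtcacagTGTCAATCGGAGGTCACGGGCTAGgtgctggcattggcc
Myh14 (chr7:44657417-44657440, minus strand, 24 bases): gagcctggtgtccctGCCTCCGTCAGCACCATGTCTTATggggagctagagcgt
Arrb1 (chr7:99597036-99597059, plus strand, 24 bases): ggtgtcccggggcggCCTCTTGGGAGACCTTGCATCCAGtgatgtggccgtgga
Picalm (chr7:90194273-90194296, plus strand, 24 bases): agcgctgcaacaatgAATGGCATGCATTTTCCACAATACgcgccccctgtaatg
Pecam1, 23-base exon (chr11:106662002-106662024, minus strand): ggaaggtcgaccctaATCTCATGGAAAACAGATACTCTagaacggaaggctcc
Pecam1, 57-base exon (chr11:106671742-106671798, minus strand): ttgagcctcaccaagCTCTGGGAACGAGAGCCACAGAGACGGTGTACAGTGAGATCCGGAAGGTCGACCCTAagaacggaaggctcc
Ager (chr17:34600351-34600377, plus strand, 27 bases): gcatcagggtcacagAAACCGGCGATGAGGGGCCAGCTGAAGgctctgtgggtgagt
Mbnl1 (chr3:60621423-60621458, plus strand, 36 bases): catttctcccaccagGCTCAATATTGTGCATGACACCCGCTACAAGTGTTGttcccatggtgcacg
Rbfox2 (chr15:77094451-77094490, minus strand, 40 bases): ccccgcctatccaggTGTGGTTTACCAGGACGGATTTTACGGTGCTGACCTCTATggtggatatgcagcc
Gnas (chr2:174336747-174336791, plus strand, 45 bases): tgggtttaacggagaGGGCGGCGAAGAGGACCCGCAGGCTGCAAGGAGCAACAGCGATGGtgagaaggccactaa
App (chr16:85040251-85040307, minus strand, 57 bases): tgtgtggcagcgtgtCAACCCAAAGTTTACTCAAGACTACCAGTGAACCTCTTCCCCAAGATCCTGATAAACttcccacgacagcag
Erg (chr16:95377301-95377372, minus strand, 72 bases): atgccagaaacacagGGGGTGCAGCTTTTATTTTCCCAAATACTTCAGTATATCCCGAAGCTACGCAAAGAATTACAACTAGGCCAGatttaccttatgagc
Vegfa (chr17:46022277-46022348, minus strand, 72 bases): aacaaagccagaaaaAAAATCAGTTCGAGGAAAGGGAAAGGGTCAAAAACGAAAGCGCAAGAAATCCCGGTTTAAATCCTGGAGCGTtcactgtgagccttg
Tgfbr2 (chr9:116158271-116158345, minus strand, 75 bases): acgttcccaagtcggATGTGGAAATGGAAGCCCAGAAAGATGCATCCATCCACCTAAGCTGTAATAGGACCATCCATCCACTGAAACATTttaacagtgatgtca
Ptbp1 (chr10:79860117-79860194, plus strand, 78 bases): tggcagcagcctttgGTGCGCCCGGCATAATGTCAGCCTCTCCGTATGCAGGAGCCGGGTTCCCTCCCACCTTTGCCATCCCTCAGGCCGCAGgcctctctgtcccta
The exons of Flna, Arrb1, Ager, Mbnl1, Gnas, Erg and Ptbp1 end in G, the usual last exon base before a donor site, and the others shown here end in another base. The 23-base Pecam1 exon and the 40-base Rbfox2 exon are the ones shown whose length is not a multiple of 3.

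Gene names were assigned by length, because the junction list is on mm9 and the annotation on mm10. A triplet took a gene where chromosome, strand and the lengths of the exon and both of its introns equalled those of an annotated gene. This named 1 gene for 201 triplets, several overlapping genes for 3 and none for 14. The 201 triplets lay in 170 genes, which is 2.74% of the 6199 genes that had an annotated exon between 2 junctions of at least 100 reads. Of these 170 genes, 144 held 1 triplet, 21 held 2, and Abi1, App, Kif1c, Pear1 and Pecam1 held 3 each. The skipping junction itself was annotated for 181 of the matched triplets and not annotated for 20. The tally minimum can favour abundant messages, and its part in the following difference was not tested. The mean of the replicates had a median of 93.6 TPM over genes with a triplet. It was 34.9 TPM over the 6009 other genes with such an exon and a TPM value.

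The junction list summed to 35330315 reads, in a pair of tallies named R1 (18082458) and R2 (17247857). No label ties R1 or R2 to a replicate, so the sum was used and both tallies are shown beside it. The gene tables held 48234745 and 44182836 expected counts in replicates 1 and 2. The lung's own markers were high in both libraries, with 4 alveolar type 2 markers summing to 28065 and 29402 TPM and 3 endothelial markers to 1421 and 1503 TPM in replicates 1 and 2. Markers of other tissues were uneven: the 8 skeletal muscle markers summed to 2747 TPM in replicate 1 and 59.4 TPM in replicate 2, the 5 squamous epithelium markers to 3897 and 1.76 TPM, and the 3 erythroid markers to 12061 and 35333 TPM.

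Inclusion was computed as the mean of the 2 inclusion tallies over that mean plus the skipping tally. Its median over the 218 triplets was 60.1%, with quartiles of 39.5% and 77.0% and a range of 2.94% to 98.5%. Inclusion lay under 20% in 18 triplets, from 20% to under 40% in 37, from 40% to under 60% in 52, from 60% to under 80% in 67 and at 80% or more in 44. Most exons were therefore neither nearly always used nor nearly always skipped, in a set whose rule asked for reads on both sides. The median tally was 364 reads on the upstream junction, 399 on the downstream one and 240 on the skipping one, against a median of 2 reads over the whole list. The 9 triplets whose least tally was 100 to 104 had a median inclusion of 64.7%, and the 18 left just outside at 95 to 99 had 37.8%.

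Inclusion from R1 alone and from R2 alone had medians of 60.2% and 59.3%. They differed by a median of 4.19 percentage points and had a Spearman correlation of 0.957 over the 217 triplets with reads in both, as a description, since both tallies chose the same members. R1 and R2 stood 10 points or more apart in 32 triplets, with 20 higher in R1 and 12 higher in R2, and 20 points or more apart in 1, that of Hyi. No background share was computed for differences between R1 and R2, so these counts only describe the members.

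**Figure D1:**
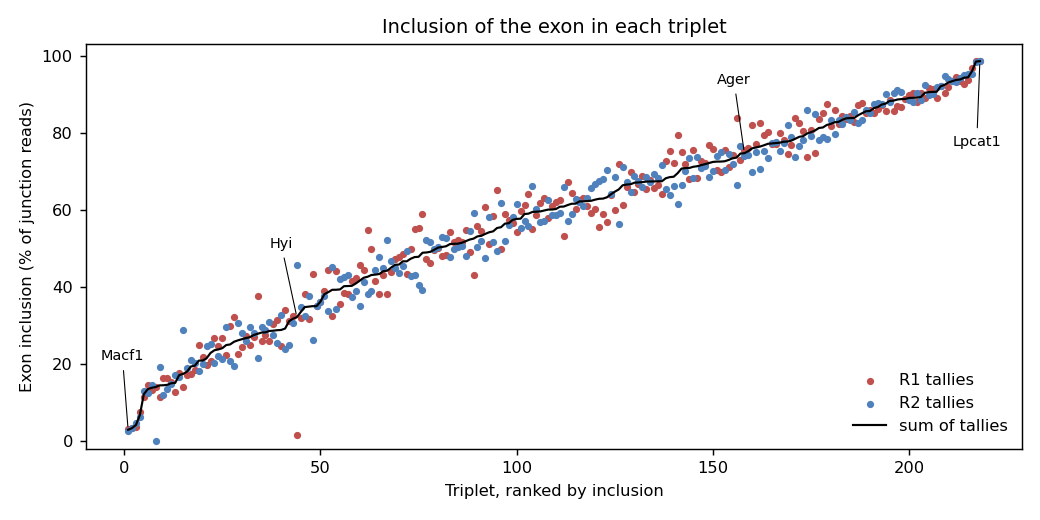
Exon inclusion in percent of junction reads (vertical axis) for the 218 triplets in rank order (horizontal axis), from R1 tallies, R2 tallies and their sum (line). The line climbs from 2.94% for Macf1 to 98.5% for Lpcat1, and the widest gap between the tallies is that of Hyi, at 1.60% by R1 and 45.6% by R2.

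Most wholly coding cassette exons had a length that keeps the reading frame. Of the 139 triplets whose exon was wholly coding, 108 had a length divisible by 3, which is 77.7% (Wilson 95% interval 70.1% to 83.8%). The comparison exons lay between 2 junctions of at least 100 reads, in the same length range, with no junction of the list joining their outer splice sites; 39.6% of 29347 such coding exons had a length divisible by 3 (39.0% to 40.1%). Coding exons skipped by 1 to 99 reads stood at 41.1% of 4220. Over every triplet, coding or not, the share was 142 of 218 (65.1%, 58.6% to 71.2%), against 39.4% of 30410 unskipped exons. The intervals treat exons as independent, which neighbouring exons of 1 gene are not, and no test was made.

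In exons of the 5′ untranslated region, which carry no frame, 13 of 31 triplets (41.9%) had a length divisible by 3, against 30.8% of 107 unskipped ones. The frame-keeping coding exons had a median inclusion of 59.2% and the 31 other coding exons 74.6%. A protein-coding annotated transcript held the skipping junction of 99 of the 108 frame-keeping exons, a decay transcript alone did so for 1, that of Hyi, and none was annotated for 8. For the 31 frame-shifting exons the counts were 14 with a coding transcript, 6 with a decay transcript alone and 5 without an annotated skipping junction, and the rest had other transcript types.

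**Figure D2:**
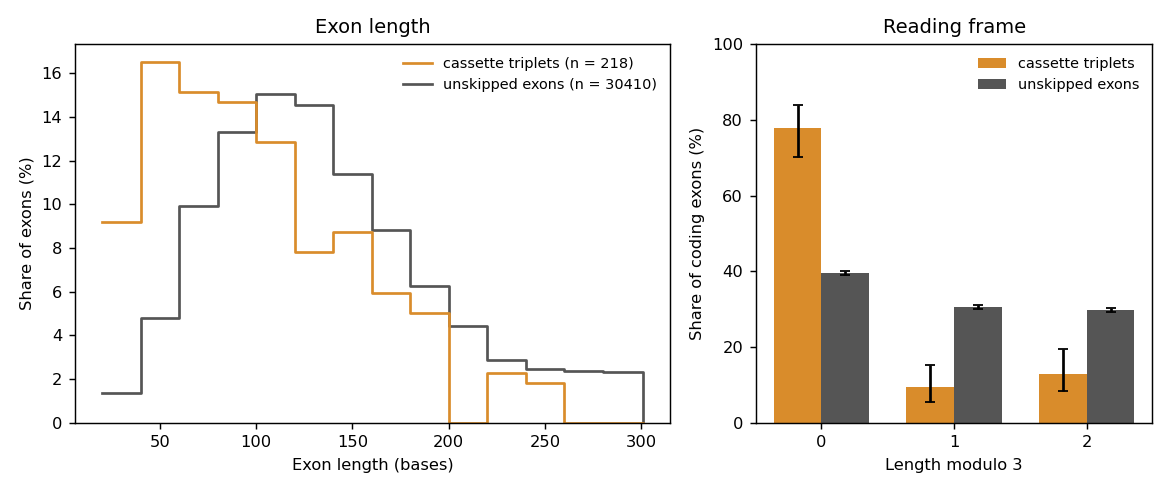
Left, exon length in bases (horizontal axis, bins of 20 bases) and share of exons in percent for cassette triplets and unskipped exons. Right, share of wholly coding exons by the remainder of their length on division by 3, with Wilson 95% intervals; remainder 0 holds 77.7% of cassette exons and 39.6% of unskipped ones.

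Cassette exons had a median length of 93 bases, and unskipped exons of 127 bases. Those of under 60 bases made up 25.7% of triplets and 6.14% of unskipped exons, and those of up to 30 bases 4.13% (9 triplets) and 0.467%. The introns beside cassette exons had medians of 1548 bases upstream and 1476 bases downstream, and those beside unskipped exons 689 and 622 bases. Wholly coding exons made up 69.2% of the matched triplets and 96.5% of the unskipped exons, exons of the 5′ untranslated region 15.4% (31 triplets) and 0.352%, and exons partly coding 9.95% (20 triplets) and 2.64%.

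The exon side of the splice sites was also read. The last base was G in 76.1% of cassette exons and 81.1% of unskipped exons, and the first base was G in 36.3% and 50.2%. The exon ended in CAG in 27.9% of cassette exons and 25.3% of unskipped ones, and median GC content was 56.0% and 55.2%. These shares cover 201 matched triplets and 28894 unskipped exons with sequence; the intron side of the sites was not analysed here.

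On a list of 66 splicing regulators, 41 had an exon flanked by well-covered junctions and 5 held a triplet (12.2%), next to 2.74% of all genes with such an exon. This list and those below were chosen with earlier results of these data known. Their shares were not adjusted for message abundance or for the number of exons per gene, and no enrichment was tested. The 6 triplets of the splicing regulators had a median inclusion of 80.7%, next to 60.1% over all triplets. Ptbp1, the polypyrimidine tract binding protein that represses many exons, was the one of the 5 whose exon was mostly skipped. Its 78-base exon, which lies in the linker between the second and the third RNA-binding domain, had 444 upstream reads (R1 198, R2 246), 610 downstream reads (R1 282, R2 328) and 1047 skipping reads (R1 511, R2 536). Inclusion was 33.5% (exact 95% interval 31.2% to 35.9%, counting error only, as for every interval on reads below). Both tallies gave a minority form, at 32.0% by R1 and 34.9% by R2.

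Mbnl1, a muscleblind protein that binds YGCY-type sites and steers exons during development, held 2 neighbouring cassette exons. Its 36-base exon was included at 79.1% (76.7% to 81.4%), with 1323 upstream, 553 downstream and 248 skipping reads. The 95-base exon next to it gave 85.6%, with 248 upstream, 1222 downstream and 124 skipping reads. The 248 reads are 1 shared junction, which joins the exon before both of them to the 95-base exon, so this upstream tally leaves out messages that hold both.

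Rbfox2, an RNA-binding protein that recognises GCAUG, had a 40-base exon at 82.8% (80.2% to 85.2%), with 693 upstream reads (R1 319, R2 374), 829 downstream reads (R1 412, R2 417) and 158 skipping reads (79 in each tally). Hnrnph1 had a 50-base exon at 82.3% and Hnrnpab, a heterogeneous nuclear ribonucleoprotein with alternative C-terminal parts, a 141-base exon at 59.4%, with 55.1% by R1 and 66.2% by R2. Of the wholly coding exons among these, those of Rbfox2 and the 95-base one of Mbnl1 have a length that is not a multiple of 3, and those of Ptbp1, Hnrnpab and the 36-base one of Mbnl1 have a length that is; the 50-base Hnrnph1 exon is partly coding.

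The 9 triplets with an exon of up to 30 bases lay in Flna, Myh14, Arrb1, Picalm, Ager, Fip1l1, Acly and Pecam1, the last with 2 triplets of 1 exon, of which 1 took its gene from that shared exon. Of these 9 triplets, 7 had a length divisible by 3, and the median inclusion was 40.2%. Flna encodes filamin A, which crosslinks actin filaments. Its 24-base exon was mostly skipped, with 502 upstream reads (R1 270, R2 232), 756 downstream reads (R1 455, R2 301) and 1981 skipping reads (R1 998, R2 983), an inclusion of 24.1% (22.5% to 25.8%). Myh14, a nonmuscle myosin heavy chain, carried its 24-base exon at 44.2% (39.4% to 49.0%), and here R1 gave 38.2% and R2 52.2%.

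Arrb1, beta-arrestin 1, which uncouples G protein-coupled receptors and links them to endocytosis, had 222 upstream, 315 downstream and 665 skipping reads, an inclusion of 28.8% for its 24-base exon. Picalm, a clathrin assembly protein, had a 24-base exon at 57.7% and, elsewhere in the gene, a 150-base exon at 14.5%. Ap2b1, a subunit of the AP-2 clathrin adaptor, had a 42-base exon at 26.7% by junctions. Of the exons of Arrb1, Picalm and Ap2b1 given here, the 24-base Picalm exon was the one present in most joins, and each of them adds a multiple of 3 bases.

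A list of 66 genes named for the actin cytoskeleton and adhesion also takes in genes of other kinds. Of the 66, 59 had a well-covered exon and 5 of these held a triplet (8.47%, next to 2.74% over all genes). Their median inclusion was 40.9% over 6 triplets. The 5 include Picalm and Fgfr2, so these values do not describe actin and adhesion genes alone. Macf1, a linker of actin and microtubules, gave the lowest inclusion of any matched triplet. Its 102-base exon had 169 upstream reads (R1 107, R2 62), 162 downstream reads (R1 77, R2 85) and 5465 skipping reads (R1 2825, R2 2640), an inclusion of 2.94% (2.52% to 3.42%). Tjp1, the tight junction scaffold ZO-1, was the reverse: its 240-base exon, known as the alpha region, was included at 66.3% (60.8% to 71.6%), with 185, 233 and 106 reads. Fgfr2, a fibroblast growth factor receptor, had a 78-base exon at 67.4% by junctions. On a list of genes known for muscle cassette exons, 11 had a well-covered exon and none held a triplet, next to 2.74% over all genes, which is under 1 gene in 11.

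**Figure D3:**
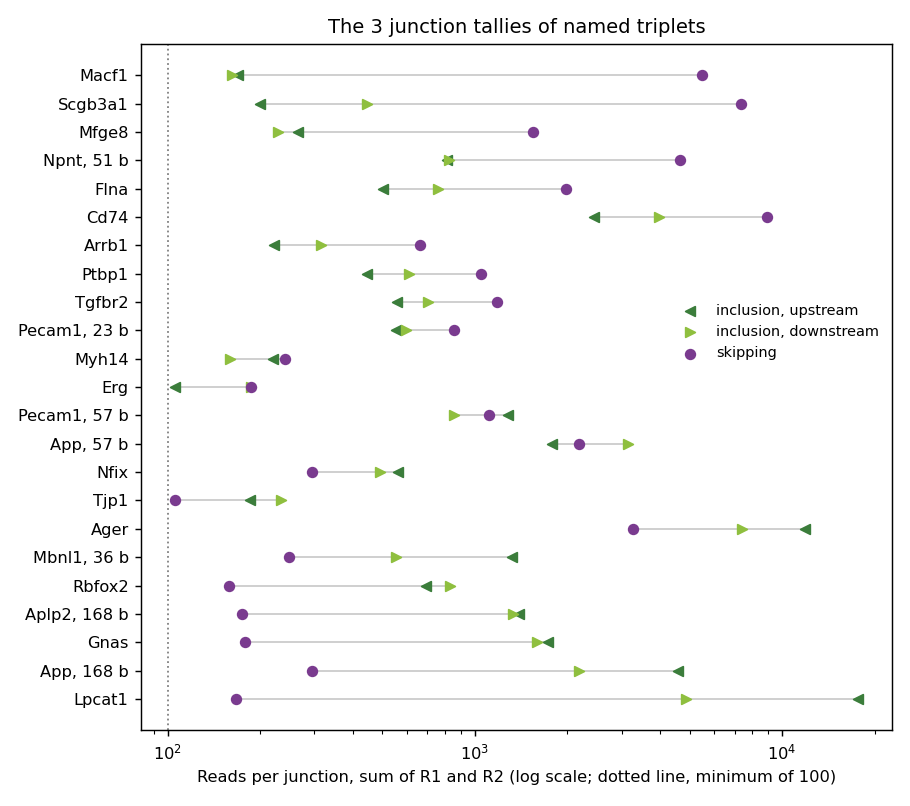
Reads on the upstream inclusion junction, the downstream inclusion junction and the skipping junction (log scale, sum of R1 and R2) for named triplets, ordered from low to high inclusion. For Macf1 the skipping junction holds 5465 reads and lies far right of both inclusion junctions, and for Lpcat1 it holds 167 reads and lies far left of them.

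Endothelial genes contributed several members. Pecam1 encodes the endothelial adhesion molecule CD31, and alternative exons of its cytoplasmic tail are known to alter which signalling motifs the tail carries. Joins for every combination of its 57-base and 23-base exons were recorded. Shares here and for Vegfa and App are of the joins that belong to a triplet. From the exon before them, 1279 reads went to the 57-base exon (50.5% of 2534; R1 821, R2 458), 141 went straight to the 23-base exon (5.56%; R1 92, R2 49) and 1114 passed both (44.0%; R1 755, R2 359). From the 57-base exon, 552 reads went on to the 23-base exon and 855 passed it. The joins that reach the 23-base exon therefore came mostly through the 57-base exon. As triplets, the 57-base exon stood at 48.9% (46.8% to 51.0%) measured against the joins past both and at 86.7% measured against the 141 joins straight to the 23-base exon, and the 23-base exon at 40.2% on joins from the 57-base exon. The triplet of the 23-base exon on joins that pass the 57-base one gave 24.9%, with the same 598 downstream reads in both.

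Erg, an ETS-family transcription factor of endothelium, had a 72-base exon with 106 upstream, 187 downstream and 186 skipping reads, an inclusion of 44.1% (38.6% to 49.5%), at 43.2% by R1 and 45.0% by R2. Adgrl4, an adhesion G protein-coupled receptor of endothelium, lay nearest to an even split, at 50.2% (45.9% to 54.4%) for a 150-base exon. Egfl7, a secreted endothelial protein, was near the top, with 10787 upstream, 5978 downstream and 132 skipping reads and 98.4% for a 116-base exon. Pear1, a platelet and endothelial receptor, held 3 triplets in its 5′ untranslated region at 42.4%, 45.7% and 57.4%. Another Egfl7 exon, of 65 bases, stood at 89.3%.

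Vegfa, the main growth factor of endothelium, is known for exons that encode its heparin-binding parts, whose use sets how far the protein diffuses. From the exon before them, 144 reads went to the 72-base exon (27.6% of 521; R1 104, R2 40), 234 went to the 132-base exon (44.9%; R1 139, R2 95) and 143 passed both (27.4%; R1 93, R2 50). The 132-base exon also took 276 reads from the 72-base exon and sent 1775 reads onward. The 72-base exon triplet gave 47.3% (42.6% to 52.1%) and the 132-base one 87.5%, the second with an upstream tally that leaves out messages holding both exons. Tgfbr2, the type II receptor for TGF-beta, has a known long form with an insert in its extracellular part. That 75-base exon had 557 upstream, 702 downstream and 1182 skipping reads, an inclusion of 34.8% (32.6% to 37.0%), at 38.2% by R1 and 32.4% by R2.

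The amyloid precursor family is a standard case of tissue-dependent inclusion, because an exon encodes a Kunitz-type protease inhibitor domain that nonneuronal tissues keep. In App, the 168-base Kunitz exon took 4593 reads (94.0% of 4887; R1 2587, R2 2006) from the exon before it, and 294 reads (R1 158, R2 136) passed both it and the 57-base exon that follows. From the Kunitz exon, 1783 reads (45.0% of 3966; R1 948, R2 835) went to the 57-base exon and 2183 (55.0%; R1 1062, R2 1121) passed it. The third cassette exon of App, of 54 bases, was included at 67.3% (65.5% to 69.1%), with 2652 upstream, 890 downstream and 859 skipping reads. Its higher junction alone gave 75.5% and its lower one 50.9%. The Kunitz exon was thus nearly constant while the other two were divided.

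Its relative Aplp2 showed the same order. The 168-base Kunitz exon of Aplp2 had 1387 upstream, 1332 downstream and 175 skipping reads, an inclusion of 88.6% (86.9% to 90.1%). A 36-base exon of Aplp2, known to interrupt a chondroitin sulphate attachment site, was included at 21.5% (18.9% to 24.4%). Of the 23 genes on the list of message fates and signalling that held App, Aplp2, Ptprc, Ager, Vegfa and Mark2, 21 had a well-covered exon and these 6 held a triplet (28.6%, next to 2.74% over all genes); their 11 triplets had a median inclusion of 59.0%, and several were listed because their exons were known to be alternative. Mark2, a microtubule affinity-regulating kinase, had a 162-base exon at 28.2%.

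Several members lay in genes of the alveolar and airway epithelium. Ager, the receptor for advanced glycation end products and a marker of alveolar type 1 cells, had the highest least tally of any matched triplet. Its 27-base exon had 11900 upstream reads (R1 5188, R2 6712), 7403 downstream reads (R1 3395, R2 4008) and 3274 skipping reads (R1 1397, R2 1877), an inclusion of 74.7% (73.9% to 75.4%). Sftpa1, surfactant protein A, had a 33-base exon of the 5′ untranslated region at 88.2%, with 25600 upstream, 7969 downstream and 2240 skipping reads. The upstream junction of Sftpa1 was the highest tally of any member.

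Lpcat1, an acyltransferase of surfactant lipid synthesis, gave the highest inclusion of any triplet, with 17695 upstream reads (R1 5838, R2 11857), 4877 downstream reads (R1 2068, R2 2809) and 167 skipping reads (R1 60, R2 107) around a 143-base exon, which is 98.5% (98.3% to 98.8%). Its annotated skipping transcript is a decay transcript. Scgb3a1, an airway secretoglobin, lay at the other end: its 105-base exon, partly coding, had 200 upstream, 444 downstream and 7349 skipping reads, an inclusion of 4.20%. Npnt, the basement membrane ligand nephronectin, held exons far apart in use, with a 93-base exon at 94.4% and a 51-base exon at 15.01% (14.1% to 16.0%). In Lpcat1 and Scgb3a1 the rarer joins made up a small share of the reads and still met the minimum of 100.

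Immune genes were divided. Cd74, the MHC class II invariant chain, has a known long form with a thyroglobulin-type domain, encoded by a 192-base exon. That exon had 2448 upstream reads (R1 1039, R2 1409), 3961 downstream reads (R1 1385, R2 2576) and 8927 skipping reads (R1 3780, R2 5147), an inclusion of 26.4% (25.6% to 27.2%). The long form was thus the minor one in both tallies, at 24.3% by R1 and 27.9% by R2. Ptprc, the leukocyte phosphatase CD45, lengthens its extracellular part with variable exons. Its 147-base exon stood at 52.5%, with R1 at 43.0% and R2 at 59.3%. The 141-base exon stood at 59.0%, with R1 at 64.1% and R2 at 55.8%. The tallies thus moved opposite ways. However, the downstream junction of the 147-base exon is also the skipping junction of the 141-base exon. Reads on it raise the first value and lower the second, so the opposite movement is partly built in. This downstream tally also leaves out messages that hold both exons. Csf2ra, the alpha chain of the GM-CSF receptor, had a 94-base exon at 94.3%, with 159 skipping reads. Adgre5, the leukocyte receptor CD97, whose EGF-like repeats vary in number, had neighbouring exons of 135 and 147 bases at 93.4% and 90.6%.

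Other members lay in genes of signalling, metabolism and transcription. Gnas, the stimulatory G protein alpha subunit, has well-known long and short forms that differ by a 45-base exon, which was included at 90.3% (88.9% to 91.6%; R1 89.0%, R2 92.2%). Gnb1, a G protein beta subunit, had a 49-base exon of the 5′ untranslated region at 49.1%. Acly, ATP-citrate lyase, had a 30-base exon at 26.9%, and Mfge8, a secreted bridging protein for clearance of dying cells, had the 111-base exon of its long form at 13.8% (12.3% to 15.5%). Stim1, the calcium sensor of the endoplasmic reticulum, had a 93-base exon at 27.5% (23.5% to 31.8%), with an upstream tally of exactly 100 reads. Nuclear factor I genes held 3 members, at 64.0% in Nfix, 77.7% in Nfia and 89.1% in Nfic by junctions. The Nfic exon had 1433 upstream and 282 downstream reads, and the lower of these gave 72.9%. Pcbp2, a poly(C)-binding protein, had a 93-base exon at 67.1%.

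Kif1c and Abi1 held 3 triplets each, with shared junctions. Kif1c, a kinesin motor, had exons of 106, 120 and 180 bases in its 5′ untranslated region at 72.5%, 70.8% and 88.3%, all with the same 735 downstream reads and the same 172 skipping reads. The downstream reads are thus counted for each of the 3 exons. By its own upstream junction alone, the 120-base exon had 101 reads and an inclusion of 37.0%, and the 106-base exon had 172 reads, as many as skipped it. Abi1, an adaptor of the actin-nucleating WAVE complex, had coding exons of 87, 174 and 177 bases at 77.1%, 63.2% and 62.9%. The 174-base and 177-base exons of Abi1 used the same downstream and skipping junctions, with 236 and 182 reads. The 236 reads join past the 87-base exon and are also its skipping reads. This downstream tally therefore leaves out messages that hold the 87-base exon as well.

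Further members stood at the edges of the ranked values. Nr2f6, an orphan nuclear receptor, had a 66-base exon of a noncoding transcript at 6.76%, with 113 upstream, 189 downstream and 2083 skipping reads. Prr13 had a 118-base exon of the 5′ untranslated region at 12.1%, and Pttg1ip a 109-base exon at 93.8%. Tgfb1i1, a focal adhesion coactivator also called Hic-5, and Tmem134 lay near an even split, at 50.4% for a 116-base exon and 50.5% for a 45-base exon. Among the longest exons, Zmiz1, a coactivator of transcription, had 255 bases at 62.3%, Ormdl2, a regulator of sphingolipid synthesis, 254 bases at 75.2%, and Zdhhc1, a palmitoyltransferase family member, 239 bases at 27.8%.

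The 2 sides of an exon often disagreed. The higher inclusion tally exceeded the lower by a median of 1.68 times, by more than 2 times in 78 triplets and by more than 5 times in 14. In 46 triplets, the choice of the lower or of the higher junction placed inclusion on opposite sides of 50%. The widest ratio, 46.5, belonged to the 147-base exon of Adgre5, with 111 upstream and 5160 downstream reads. There the 111 upstream reads are the same junction that skips the neighbouring 135-base exon, so they leave out messages holding both exons, as for the 132-base exon of Vegfa. Without a wide imbalance, in the 140 triplets with a ratio of 2 or less, median inclusion was 54.1%.

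The transcript tables gave a second reading, with a value in each replicate. Transcript inclusion is the TPM of annotated transcripts that hold both inclusion junctions over that of these and of transcripts that hold the skipping junction. It could be computed for 149 triplets with a sum of at least 1 TPM in both libraries. The medians were 53.5% in replicate 1 and 55.6% in replicate 2, a mean of 54.6% ± 1.48 (SD, n = 2). It was at least 10 points apart between the replicates in 29 of the 149 (19.5%), with 14 higher in replicate 1 and 15 higher in replicate 2. The same difference held for 18.2% of the 8218 annotated cassette triplets at that level, so the members' share was close to the background. With 1 group of 2 libraries no test of these differences was possible.

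Hyi, which encodes a putative hydroxypyruvate isomerase and is annotated as a polymorphic pseudogene, stood farthest apart. Transcript inclusion of its 84-base exon was 1.77% in replicate 1 and 47.0% in replicate 2. The junctions showed the same spread between their tallies: the upstream junction had 0 reads in R1 and 218 in R2, the downstream one 6 in R1 and 168 in R2, and the skipping one 184 in R1 and 230 in R2. The skipping junction was thus used in both tallies, and the inclusion junctions nearly in R2 alone. The exon lies at chr4:118360306-118360389 on the plus strand of mm10, after an intron of 74 bases. Gene levels were 39.7 and 60.7 TPM in replicates 1 and 2.

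Some other large differences by transcripts were smaller or absent in the junction tallies. For the exons of Vegfa they ran the other way, if R1 is taken as replicate 1. For the 72-base Vegfa exon, transcript inclusion was 37.1% in replicate 1 and 76.7% in replicate 2, while the junctions gave 49.9% by R1 and 42.9% by R2. For the 132-base Vegfa exon it was 46.9% in replicate 1 and 26.0% in replicate 2, against 85.7% by R1 and 90.0% by R2. No label ties R1 or R2 to a replicate; the reads of Krtdap lay in R1 alone and its TPM in replicate 1 alone, and Cnfn was nearly so, with the values given below.

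Baiap2, an adaptor of membrane protrusion, behaved otherwise, with 57.9% in replicate 1 and 37.5% in replicate 2 by transcripts and 58.8% by R1 and 39.1% by R2 by junctions around its 48-base exon. The first exon of the Ptprc pair, of 147 bases, gave 64.9% in replicate 1 and 85.7% in replicate 2 by transcripts. By junctions it gave 43.0% by R1 and 59.3% by R2. Its transcript value rested on 1 including and 1 skipping transcript, and the including one joins past the other exon of the pair. From expected counts it was 16.9% in replicate 1 and 39.7% in replicate 2. That is again higher in replicate 2, but with skipping as the major form. Gas2l1, which links actin to microtubules and holds the longest member exon at 258 bases, gave 37.5% and 61.3% in replicates 1 and 2 by transcripts and 55.5% by R1 and 67.4% by R2. Coq2, an enzyme of coenzyme Q synthesis, gave 69.3% in replicate 1 and 49.0% in replicate 2 by transcripts and 65.2% by R1 and 49.3% by R2. Rcsd1, Csnk1d and Eif4g3 moved less by junctions. Rcsd1, a regulator of actin capping, had 85.1% in replicate 1 and 67.8% in replicate 2 by transcripts and 30.4% by R1 and 27.4% by R2. Csnk1d, casein kinase 1 delta, had 78.7% in replicate 1 and 64.2% in replicate 2 by transcripts and 84.3% by R1 and 83.2% by R2. Eif4g3, a translation initiation factor, had 51.2% in replicate 1 and 71.9% in replicate 2 by transcripts and 18.6% by R1 and 20.2% by R2 for a 33-base exon. Of the 29 triplets, 10 were also at least 10 points apart between R1 and R2 with the same sign, a count without a background share.

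**Figure D4:**
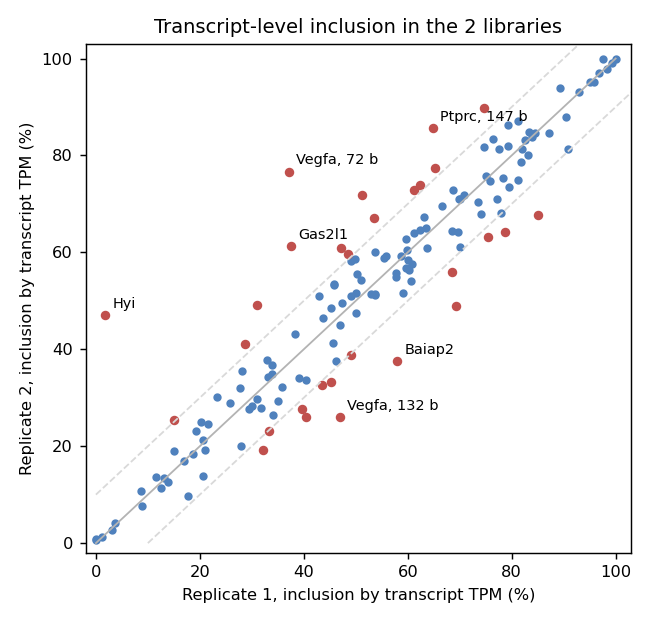
Transcript-level inclusion in percent in replicate 1 (horizontal axis) and replicate 2 (vertical axis) for 149 triplets, with the line of equality and dashed lines 10 points either side. The 29 red points lie 10 points or more apart, with Hyi at 1.77% in replicate 1 and 47.0% in replicate 2, and the blue points lie between the dashed lines.

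Junction and transcript inclusion ranked the triplets alike only in part. Their Spearman correlation over 149 triplets was 0.611, as a description, since both were made from the same libraries. They lay within 10 points of each other for 75 triplets and 30 points or more apart for 20. The widest gap was in Zyx, the focal adhesion protein zyxin, where a 93-base exon stood at 89.0% by junctions and at 3.07% in replicate 1 and 2.62% in replicate 2 by transcripts. Mgrn1, a ubiquitin ligase, went the other way, with 22.9% by junctions against 87.1% and 84.5% by transcripts in replicates 1 and 2. So did the 42-base exon of Ap2b1, at 26.7% by junctions against 82.1% and 81.3% by transcripts. The 77-base exon of Nfic went as Zyx did, at 89.1% by junctions against 33.0% and 37.8% by transcripts. The 2 readings thus gave opposite major forms for some exons. In Zyx and in Mgrn1 the transcript value rested on 1 including and 1 skipping transcript. For Mgrn1, 2 including and 3 skipping transcripts were annotated, and the quantified ones were not all of equal length in both annotations. By contrast, Ager stood at 70.1% and 71.0% by transcripts in replicates 1 and 2, within 5 points of its junction value, and Cd74 at 23.3% and 30.1%. Sftpa1 lay farther from its junction value of 88.2%, at 55.5% and 58.8% by transcript TPM in replicates 1 and 2. From expected counts its transcript values were closer, at 83.7% and 85.5% in replicates 1 and 2.

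Members of 2 squamous epithelium genes came from 1 tally. Krtdap, a keratinocyte differentiation-associated protein, had 554 upstream, 1388 downstream and 123 skipping reads, all in R1, and its gene level was 271.8 TPM in replicate 1 and listed at 0 in replicate 2. Cnfn, cornifelin of the cornified envelope, had 3138 upstream, 1599 downstream and 5254 skipping reads, of which R2 held 2, 0 and 3, and its gene level was 1273 TPM in replicate 1 and 0.58 TPM in replicate 2. The squamous markers moved with them as given above (3897 TPM in replicate 1 and 1.76 TPM in replicate 2), and their part in the tallies was not tested. Without their triplets, median inclusion over the rest was 60.1%.

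The glycolytic enzyme Aldoa held a triplet that differed between the tallies. Both Aldoa triplets used the same 153-base exon and the same downstream junction, so the downstream reads are counted for each. The one with 386 upstream and 3431 skipping reads gave 14.5% by R1 and 12.4% by R2. The other had 167 upstream reads (R1 135, R2 32) and 2010 skipping reads (R1 1605, R2 405), and it gave 14.0% by R1 and 28.7% by R2. Its upstream and skipping reads were lower in R2 by nearly the same proportion. The gap between the tallies therefore rests on the shared downstream reads, and the upstream junction alone does not show it. Aldoa stood at 1198 TPM in replicate 1 and 637.2 TPM in replicate 2, beside the skeletal muscle markers at 2747 and 59.4 TPM in replicates 1 and 2; their part in the result was not tested.

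No gene matched 14 triplets. Of these, 3 shared a 59-base exon at chr4:3017238-3017296 on the minus strand of mm9 and gave 49.6%, 51.2% and 51.4%. An 86-base exon at chr12:17774020-17774105 on the plus strand of mm9 had 1382 upstream, 521 downstream and 1252 skipping reads, an inclusion of 43.2%. A 130-base exon at chr8:123602731-123602860 on the minus strand of mm9 stood at 3.36%, next to Macf1 at the bottom of the range. The exon next to Cnfn, of 87 bases, stood at 14.0% with all of its 114 upstream reads in R1.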

How the data were processed

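Per the labels, both libraries are stranded paired-end reads of polyadenylated lung RNA with spike-ins. The deposited junction list, on mm9, gives read counts per junction as the sum of R1 and R2, and a reproducibility score, whose computation no source states. The deposited expected counts, TPM and FPKM per gene and transcript rest on mm10 and GENCODE M4, per the file headers and lists. No source used here names the aligner or the quantifier.

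Triplets were found by exact shared junction ends, and the search was checked on simulated data. Annotation was GENCODE M21; 101510 quantified transcripts matched by identifier, 91424 of them at equal length. The design foresaw splice-site bases on both sides, and the exon side alone was read. Intervals are Clopper-Pearson for reads and Wilson for exon shares, and cover counting error only. No p-value was computed. Members and lists were chosen with earlier results of these data known. Named triplets are the extremes of tally, inclusion, length and replicate difference, genes with most triplets, and list members; the others named (Tgfbr2, Gnas, Erg, Acly, Fip1l1, the 65-base Egfl7 exon, the 51-base Npnt exon, Ap2b1, Mfge8, Stim1, Nfia, Nfic, Nfix, Adgre5, Zyx, Mgrn1, Krtdap and unmatched triplets) were chosen after their values were seen. Python 3.11.15, pandas 2.3.3, numpy 2.4.6, scipy 1.17.1 and statsmodels 0.14.6 were used. Alternatives covered tally and length limits, the lower or higher junction, R1 or R2 alone, FPKM, expected counts, TPM minimums and transcript matching.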

Additional observations from a re-analysis of the deposited data

How the results depend on the processing

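The number of triplets followed the tally minimum, with 541 at 50 reads and 74 at 200 reads, against 218 at 100 reads. Median inclusion by junctions, 60.1% in the values above, was 49.9% from the lower of the 2 inclusion junctions, 65.5% from the higher, 50.9% at a minimum of 200 reads and 54.1% where the inclusion junctions lay within 2-fold of each other, a setting chosen after seeing the data. Median transcript inclusion, 54.6%, was 57.9% from expected counts and 52.2% from transcripts of equal length in both annotations, also added after seeing the data; it ran from 53.5% to 55.6% with either replicate left out. A limit of 20 points left 8 triplets apart between the replicates, against 29 at 10 points, and no background share was computed at 20 points. The cause of these shifts was not tested. The correlation of junction and transcript inclusion ran from 0.582 to 0.625 with either replicate left out. Counting these, 23 alternatives left the value within 1.5 times the count or within its interval or spread. No paired analysis was possible because there is 1 group. Joins under 100 reads were not members, and the intervals cover counting error only.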
